A study of Mus musculus with 12 samples.

Results

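Klrg1 and Itgae are surface receptor genes used to mark mature regulatory T cells (Treg cells), and each was followed on 1 probe set, 1420788_AT for Klrg1 and 1447541_S_AT for Itgae. These are 2 of the 45101 probe sets in the table, and their gene names came with the list of members, since the table itself does not pair probe sets with genes. Both were selected on their strain difference in Treg cells, with results of these arrays known. That difference is therefore a description here, with no test, and so are the comparisons of Treg with effector cells, which use the same Treg arrays. The strain difference in effector cells did not choose them and was tested.

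The study compared CD4+ CD25+ spleen T cells of C57BL/6 mice with those of mice lacking the IL-2 receptor beta chain, whose C57BL/6-2Rbeta-WT/thymus transgene supplies that chain, per its name, as the wild-type form for the thymus. The labels used here do not name the promoter of the transgene. In each strain Treg cells were sorted fresh from spleen, and effector T cells were sorted as activated CD25-high cells after spleen cells had been cultured for 48 hours with anti-CD3, which activates T cells by crosslinking their receptor. Each of the 4 groups had 3 Affymetrix arrays, called distinct biological replicates in the labels. C57BL/6 effector mice were 10, 14 and 14 weeks old and transgenic effector mice 15, 14 and 9 weeks, with 1 mouse per array. C57BL/6 Treg arrays 1, 2 and 3 held pools of 8, 8 and 15 mice aged 12, 12 and 10 weeks. Transgenic Treg arrays 1, 2 and 3 held pools of 4, 8 and 3 mice aged 33, 13 and 7 to 16 weeks.

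KLRG1 is an inhibitory receptor of the C-type lectin-like family, carried by terminally differentiated T cells and NK cells. It has an inhibitory tyrosine motif in its cytoplasmic tail. Itgae encodes CD103, the integrin alpha E chain, which pairs with the integrin beta 7 chain and helps to hold lymphocytes in epithelium. Both receptors bind E-cadherin, the adhesion molecule of epithelial cells. IL-2 supports the survival and function of Treg cells through the beta and gamma chains of its receptor and the transcription factor STAT5. Treg cells that carry KLRG1 or CD103 are commonly described as an antigen-experienced, differentiated part of the population. In the RefSeq annotation of GRCm38.p6, Klrg1 (gene ID 50928) overlaps no other protein-coding gene, and its nearest ones are Mug2 and M6pr. Itgae (gene ID 16407) lies between Ncbp3 and P2rx5, and its span holds Haspin, a mitotic kinase gene. The sources used here do not say whether the Itgae probes avoid that gene. The disrupted receptor gene, markers of Treg maturity and markers of other cell types were not looked up, because no table used here pairs their probe sets with names. The maturity of the sorted cells was thus not checked on these arrays.

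Array medians lay between 3.08 and 3.27 on the log2 scale of the deposited values. The lowest value of an array was between 0.296 and 0.325 for effector cells but between 0.942 and 0.957 for Treg cells, so levels set across the populations may carry a difference in scale. The tests covered 18271 probe sets, those at or above 5 (log2) on 3 or more arrays. Both genes passed this filter through Treg arrays alone, on which Klrg1 reached it on 3 C57BL/6 and 2 transgenic arrays and Itgae on all 6. A probe set that passes in this way has to differ between populations.

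Klrg1 was strongly expressed in Treg cells of normal mice and far lower in Treg cells with the defective receptor. Its log2 values on C57BL/6 Treg arrays 1, 2 and 3 were 9.40, 9.80 and 10.05. On transgenic Treg arrays 1, 2 and 3 they were 3.77, 5.08 and 6.00. All 3 transgenic values lay below all 3 C57BL/6 values, and the closest pair of arrays was 3.40 apart. The means were 9.75 ± 0.33 and 4.95 ± 1.12 (log2, SD, n = 3), a difference of -4.80, or 27.8-fold. Among all 18271 tested probe sets, 3 had a larger negative strain difference in Treg cells. This contrast chose both genes, so nothing is read from that place or from the one given for Itgae below. Whether fewer Treg cells carried the transcript or each cell carried less of it cannot be told apart in these pooled samples.

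Itgae was lower as well, and stayed above a log2 value of 5 on every transgenic Treg array. Its log2 values were 9.41, 9.45 and 9.98 on C57BL/6 Treg arrays 1, 2 and 3. On transgenic Treg arrays 1, 2 and 3 they were 6.01, 6.89 and 6.73. The groups did not overlap, and the closest arrays were 2.52 apart. The means were 9.61 ± 0.32 and 6.55 ± 0.47 (log2, SD, n = 3), a difference of -3.07, or 8.38-fold, and 11 tested probe sets had a larger negative difference. Groups that did not overlap, with the transgenic arrays lower, made up 7.18% of all tested probe sets, and nothing is read from the 2 genes against that share, since this contrast chose them.

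**Figure D1:**
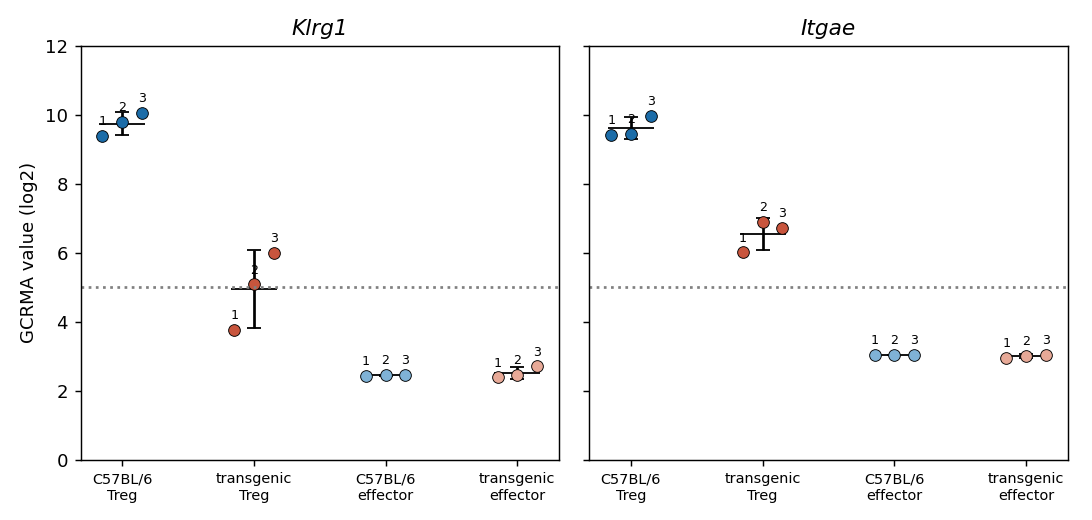
Deposited log2 values of Klrg1 and Itgae on each array, by group. Points are arrays with their replicate numbers, horizontal bars and whiskers are the mean and SD (n = 3), and the dotted line marks the log2 value of 5 used for filtering. Transgenic Treg arrays lie between the C57BL/6 Treg arrays and the effector arrays for both genes.

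The transgenic Treg arrays spread more in Klrg1 than the C57BL/6 Treg arrays did, with SDs of 1.12 and 0.33. In Itgae the SDs were 0.47 and 0.32. Transgenic array 1 was the lowest of its group in both genes, with deviations from the group mean of -1.18 for Klrg1 and -0.53 for Itgae on the log2 scale. It held the pool of 33-week-old mice. C57BL/6 array 1 was the lowest and array 3 the highest of that group in both genes. Without transgenic array 1 the strain difference was -4.20 for Klrg1 and -2.80 for Itgae. The part of age in the difference was not tested.

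One transgenic pool can be set beside C57BL/6 pools of nearly the same age and size. Transgenic Treg array 2 held 8 mice of 13 weeks, and C57BL/6 Treg arrays 1 and 2 held 8 mice of 12 weeks each. These arrays also carry consecutive sample codes of the array provider, read here as 1 run. In Klrg1 the transgenic array read 5.08 against a mean of 9.60 on the C57BL/6 arrays, a difference of -4.51. In Itgae it read 6.89 against 9.43, a difference of -2.54. Over the 4 arrays of that run, which add transgenic array 1, the differences were -5.17 for Klrg1 and -2.98 for Itgae.

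Transcripts added as hybridization controls read 12.65, 11.63 and 10.50 on C57BL/6 Treg arrays 1, 2 and 3, and 10.52, 10.50 and 10.79 on the transgenic Treg arrays (mean log2 value). C57BL/6 array 3, the one whose control reading resembled the transgenic arrays, had the highest Klrg1 and Itgae values. Set against that array alone, the transgenic mean was lower by 5.10 in Klrg1 and by 3.44 in Itgae on the log2 scale. That array also differed from the others in pool size and sample code. No sort purity was recorded for it, where the other Treg arrays had 99.4% to 99.9%. The part of the control readings in the strain difference was not tested.

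Klrg1 had the larger strain difference of the pair, by 1.73 on the log2 scale. Within an array, the Klrg1 value minus the Itgae value was -0.01, 0.35 and 0.07 in C57BL/6 Treg cells and -2.24, -1.80 and -0.73 in transgenic Treg cells. The absolute size of this gap has no meaning, since different probe sets hybridize differently. The gap lay lower on every transgenic Treg array than on any C57BL/6 Treg array, and transgenic array 3 came closest to the C57BL/6 arrays. This was not tested, because the Treg contrast chose both genes. The value of Klrg1 on transgenic array 1 lay below a log2 value of 5, where background correction sets much of the size. With every value under 5 raised to 5, the Klrg1 difference was -4.39, or 20.9-fold, and that of Itgae, which had no such Treg value, stayed at -3.07.

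In effector cells both transcripts read below the median of all probe sets on every array. Klrg1 read 2.43, 2.46 and 2.45 on C57BL/6 effector arrays 1, 2 and 3, and 2.39, 2.45 and 2.71 on transgenic effector arrays 1, 2 and 3. Itgae read 3.03, 3.05 and 3.04 on the C57BL/6 arrays and 2.95, 3.02 and 3.05 on the transgenic arrays. The strains overlapped in both genes, so that 0 of 2 separated the groups, where 22.8% of all tested probe sets did in either direction. Between 25.1% and 34.2% of all probe sets read lower than Klrg1 on these arrays, and between 44.7% and 46.4% read lower than Itgae. Values this low cannot be told from background on these arrays.

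The effector strain difference was 0.07 for Klrg1, with a standard error of 0.43 and a 95% interval from -0.87 to 1.01 on the log2 scale (limma adjusted p = 0.998). For Itgae it was -0.04, with a standard error of 0.24 and an interval from -0.55 to 0.48 (limma adjusted p = 0.999). Neither gene was called, 0 of 2, where 2.99% of all tested probe sets were called at an adjusted p under 0.05, and the unadjusted p-values were 0.878 for Klrg1 and 0.885 for Itgae. The intervals use a residual variance shared with the Treg arrays and are wider than the spread of the effector arrays themselves, whose SDs ran from 0.01 to 0.17. At background level the arrays could not show a further fall in either gene. In the plot of both strain differences the 2 genes stand near 0 for effector cells and far below 0 for Treg cells. The difference between these strain differences was not tested, because the Treg contrast chose the genes.

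**Figure D2:**
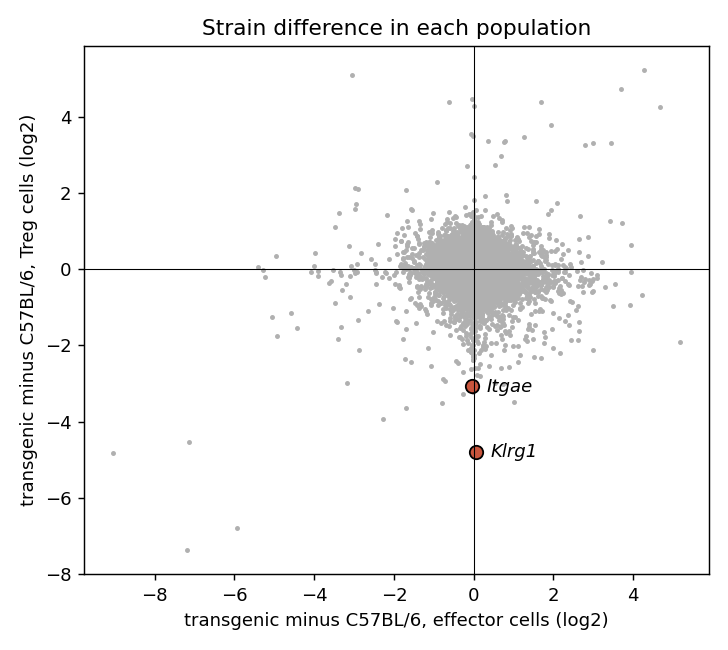
Strain difference (transgenic minus C57BL/6, log2) of each of the 18271 tested probe sets in effector cells (horizontal axis) and in Treg cells (vertical axis). Grey points are probe sets, and red points mark Klrg1 at 0.07 and -4.80 and Itgae at -0.04 and -3.07.

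The labels of transgenic effector array 3 disagree with each other. Its title and source describe cultured effector cells, and its purification text describes fresh spleen cells. This array had the highest Klrg1 value of the 6 effector arrays, 2.71, where the others read at most 2.46, while its Itgae value of 3.05 lay within the range of the C57BL/6 effector arrays. Both values were far from those of fresh Treg cells of either strain. Without this array the Klrg1 strain difference in effector cells was -0.028 in place of 0.07, and it was not called either way (limma adjusted p = 0.999).

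Treg cells of C57BL/6 mice exceeded effector cells by 7.30 in Klrg1 and by 6.57 in Itgae (log2). Among the tested probe sets, 6 had a larger positive difference than Klrg1 and 16 a larger one than Itgae. Groups that did not overlap, with Treg arrays higher, made up 33.0% of all tested probe sets, as both genes did. With effector values raised to the log2 value of 5, the differences were 4.75 for Klrg1 and 4.61 for Itgae, so much of their size rests on values at background. Culture, activation, pooling of mice and the provider's run, as read from the sample codes, all changed with the population and cannot be told apart from it.

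Itgae read higher on all 3 transgenic Treg arrays than on any effector array, with every transgenic Treg value above 5. For Klrg1 the deposited values had the same order, but on transgenic Treg array 1 it read 3.77, under the log2 value of 5 like all effector values, and such values are not read as different levels. The difference from transgenic effector cells was 2.44 for Klrg1 and 3.54 for Itgae (log2), and the groups did not overlap in either gene, as in 31.8% of all tested probe sets with Treg arrays higher. With values under 5 raised to 5, these differences were 0.36 for Klrg1 and 1.55 for Itgae. Of the log2 distance between C57BL/6 Treg and C57BL/6 effector cells, 65.7% was missing in transgenic Treg cells for Klrg1 and 46.7% for Itgae as deposited, and 92.4% and 66.5% with values under 5 raised to 5, so these shares depend on the background correction. As deposited, the order of the group means was C57BL/6 Treg, transgenic Treg and then effector cells in both genes. The effector strains overlapped in both genes, at values that cannot be told from background, so nothing is read from that overlap.

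Position within each array does not need a shared scale. Klrg1 stood above 90.3% to 93.1% of probe sets on the C57BL/6 Treg arrays and above 56.9% to 68.0% on the transgenic Treg arrays. Itgae stood above 90.3% to 92.8% and above 68.3% to 73.9% of them. In normal Treg cells both genes were thus near the top of the array, and in transgenic Treg cells both stood lower, though above its median. The array medians of 3.08 to 3.27 lie under the log2 value of 5, so a place above the median does not show expression. The 56.9% for Klrg1 came from transgenic array 1, at a log2 value of 3.77.

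**Figure D3:**
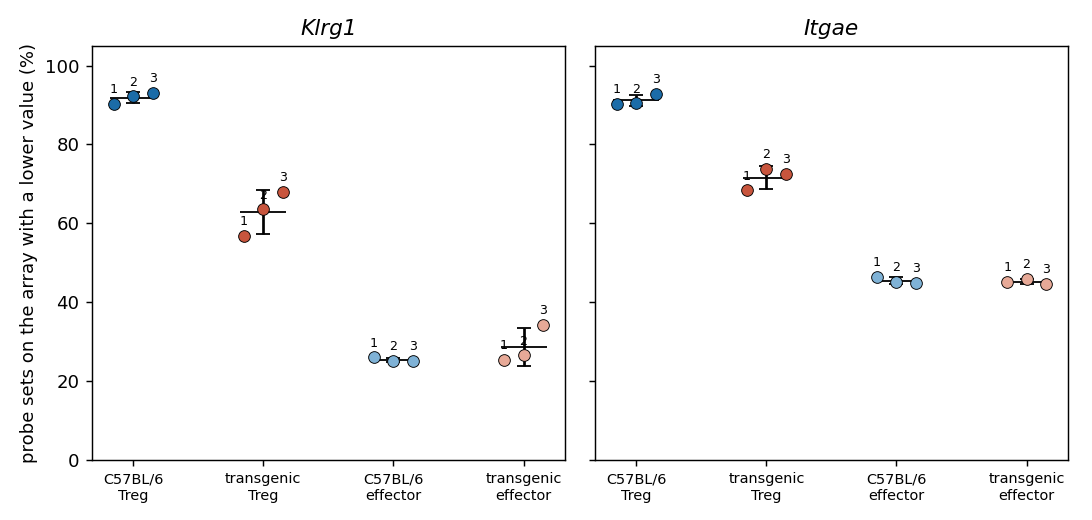
Share of probe sets on the same array with a lower value than Klrg1 or Itgae, in percent, by group. Points are arrays with their replicate numbers, and bars and whiskers are the mean and SD (n = 3). For Klrg1 the C57BL/6 Treg arrays lie at 90.3% to 93.1% and the transgenic Treg arrays at 56.9% to 68.0%.

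Klrg1 and Itgae were set beside other probe sets with a like distribution over the groups. On 61 probe sets all 6 effector arrays read below a log2 value of 5 and all 3 C57BL/6 Treg arrays read at least 8. Klrg1 had the largest negative strain difference of these 61 in Treg cells, and Itgae had the next. The other 59 had a median strain difference of -0.49, with quartiles of -0.74 and 0.00, against a median of 0.03 over all tested probe sets. Of the 59, 44 were lower in transgenic Treg cells, 5 by 2 or more on the log2 scale, and none was higher by 2 or more. The lowest of them stood at -3.02, just short of Itgae. With a minimum of 7 in place of 8 there were 235 others with a median of -0.19, and with a minimum of 9 there were 14 others with a median of -0.06. Klrg1 and Itgae remained the lowest pair at each of these limits. Klrg1 and Itgae were selected on this strain difference, so nothing is read from their place at the low end. The limits were chosen with the values in view and use the same C57BL/6 Treg arrays as the difference, so this is a description.

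**Figure D4:**
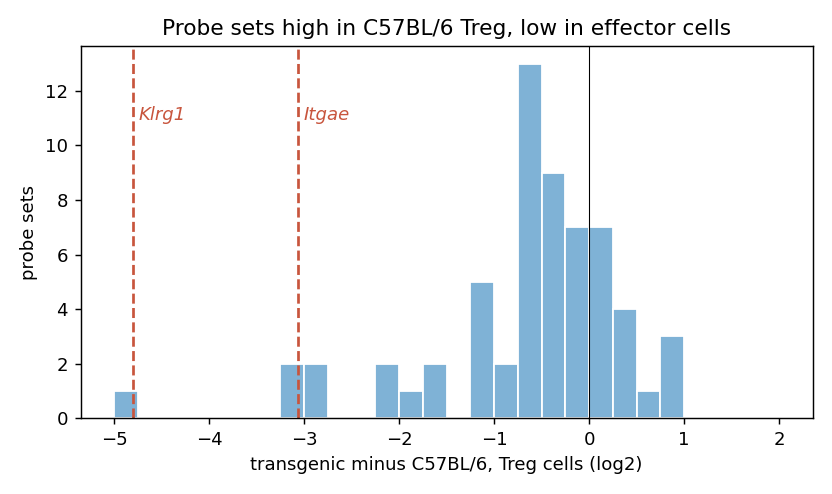
Strain difference in Treg cells (transgenic minus C57BL/6, log2) of the 61 probe sets that read below a log2 value of 5 on all effector arrays and at least 8 on all C57BL/6 Treg arrays. Bars count probe sets, and dashed lines mark Klrg1 at -4.80 and Itgae at -3.07, both at the low end of the set. Both genes were selected on this difference.

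Probe sets were ranked by how closely their log2 values followed each gene over the 12 arrays, among the 9597 others that varied by at least 2. The best match to Klrg1 was 1425145_AT (Pearson r = 0.991). It averaged 7.50 ± 0.76 in C57BL/6 Treg, 4.28 ± 0.79 in transgenic Treg, 2.05 ± 0.02 in C57BL/6 effector and 2.02 ± 0.04 in transgenic effector cells (log2, SD, n = 3). The best match to Itgae was 1435787_AT (r = 0.996). It averaged 7.60 ± 0.38, 5.76 ± 0.06, 3.48 ± 0.02 and 3.48 ± 0.02 in the same groups. Their group means had the order of those of the 2 genes, which follows from ranking by r over these arrays. On transgenic Treg arrays 1, 2 and 3, 1425145_AT read 3.59, 4.10 and 5.14. Values under 5 there are not read as different from its effector values. Itgae ranked at place 12 among the matches to Klrg1, and Klrg1 at place 48 among those to Itgae (r = 0.974). Over the 6 Treg arrays alone, with 1382 candidates, they ranked at places 10 and 7 (r = 0.986). The lists of the 5 best matches to each gene shared 1 probe set over the 12 arrays and 1 over the 6 Treg arrays. These arrays fall into separate groups, so each r mostly measures the differences between groups.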

How the data were processed

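RNA of 12 sorted samples was amplified once by in vitro transcription and hybridized to Affymetrix arrays, per the labels' protocols. The deposited values are log2 values, 1 per probe set and array, made by the authors with GCRMA (background correction, normalization and summary), per the submitters' processing notes. The notes give no version. Replicate numbers follow the sample titles, although another label field of C57BL/6 effector array 3 and of transgenic effector array 2 reads number 1.

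The 64 control probe sets were left out, and 18271 of 45037 others were tested. One limma 3.58.1 model (R 4.3.3) with 4 group means and a variance trend was fitted to all 12 arrays, with Benjamini-Hochberg adjustment over all tested probe sets and a threshold of 0.05. It was also run on simulated data, made as independent noise around the group means with 200 probe sets changed in effector cells. That simulation does not copy differences in quality between arrays. With 3 arrays against 3, an exact two-sided permutation test cannot go below p = 0.1, and the number of arrays limits the precision. The members and the gene lists were chosen with earlier results of these data known. The lists of other genes and of cell type markers were not tested, because no table used here names their probe sets. The named probe sets are the members and, shortened from a rule of 5, the best match to each over 12 arrays. The rule asked for matches with 1 gene symbol, which could not be applied, so all tested probe sets were ranked.

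Same-numbered Treg arrays of both strains correlated at 0.58, 0.10 and 0.51 in their deviations from the group means, all above 0.1, and were taken as paired. Any such pairing comes from the data. Same-numbered effector arrays (0.21, -0.34 and -0.34) did not all pass that minimum. Alternatives were other filters, normalizations, variance models, array weights, blocks and arrays left out. Figures were drawn with matplotlib 3.10.9.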

Additional observations from a re-analysis of the deposited data

How the results depend on the processing

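The Treg strain differences of Klrg1 and Itgae stayed within 1 SD of the difference of their values under every setting run. That SD, the root of the summed variances of both groups, was 1.17 for Klrg1 and 0.57 for Itgae. With all arrays kept they ran from -5.30 to -4.39 and from -3.45 to -2.81. With 1 array left out they ran from -5.32 to -4.20 and from -3.24 to -2.80. With the replicate number as a block (replicate block) they were unchanged at -4.80 and -3.07, as a balanced design requires. In effector cells no setting called either gene. The differences ran from -0.03 to 0.13 for Klrg1 and from -0.06 to -0.01 for Itgae with 1 array left out, and that of Klrg1 turned to -0.028 without transgenic effector array 3. With the block they were 0.07 and -0.04. The excess of C57BL/6 Treg over effector cells rose to 7.62 for Klrg1 with centred arrays and also with quantile normalization, and to 6.89 and 6.92 for Itgae. It dropped to 4.75 and 4.61 with values under 5 set to 5, a setting chosen after seeing the data. With 1 array left out it ran from 7.15 to 7.47 and from 6.39 to 6.67. The 547 probe sets called between strains in effector cells became 347 with no filter, 223 with only the 6 arrays of the contrast, 3033 with array weights and 0 with the replicate block (2425 at an unadjusted limma p under 0.05), whose numbers did not pair these arrays. With 1 array left out they ran from 266 to 628, and were 295 without C57BL/6 effector array 1, 266 without array 2 and 355 without transgenic effector array 2. The provider's run, as read from the sample codes, could be a block in Treg cells alone. The count of effector and mature Treg genes and the values on other probe sets of the 2 genes were not run, since no table used here names them.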
